A study of Mus musculus with 18 samples.

Results

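Iron handling genes and the metallothioneins were followed in the livers of 18 mice. The members were 10 listed genes, the hepcidins Hamp and Hamp2, the transferrin receptors Tfrc and Tfr2, ferritin heavy chain Fth1, the iron exporter Slc40a1, the ligand Bmp6, transferrin Trf, and the metallothioneins Mt1 and Mt2. A probe set was taken when the platform annotation gave it a member's symbol and no other. This gave 20 of the 45101 probe sets, for 9 of the 10 genes. Trf had none, because its only probe set also carried another gene's symbol, and it is not analysed here. Of the 20, 15 passed the filter on dim probe sets and were tested among 22885 probe sets of 12880 genes.

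Male mice, 5 weeks old at the start, ate a purified AIN-93G diet for 20 weeks. The diet held no quercetin (control), 0.05% quercetin or 1% quercetin, a plant flavonol that chelates iron. The labels give 12 mice per diet, housed 3 per cage. Arrays were made from 6 mice per diet, each from the liver RNA of 1 mouse, so n = 6 in every diet mean. The strain is written C56BL/6J in the sample labels and C57BL/6J in the growth protocol. The cage of each mouse is not given in the sources used here, so cage was in no model.

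Liver is the main store of body iron and the source of hepcidin, the hormone that makes cells internalise and degrade the iron exporter ferroportin, the product of Slc40a1. Hepatocytes set Hamp transcription through BMP6 from endothelial cells, which acts through SMAD proteins, and through inflammatory cytokines, which act through STAT3. Iron regulatory proteins stabilise Tfrc mRNA when cellular iron is low and hold back translation of Fth1 mRNA, so the Fth1 message need not follow ferritin protein. Metallothioneins are small cysteine-rich proteins that bind zinc and copper. Their genes are switched on by the metal-sensing factor MTF1, and in liver also during inflammation and by glucocorticoids.

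The promoters are printed because Mt1 and Mt2 were high and low in the same mice, while Hamp and Hamp2 had an r of -0.17 over 18 livers. The sequences come from RefSeq on build GRCm38.p6 and are written 5′ to 3′ on the gene's strand. For the metallothioneins, 250 bases before the annotated start and the first 30 bases of the transcript are shown, and capitals mark the core of the metal response element. That core was searched as TGCACNC and TGCGCNC on both strands.

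Mt1: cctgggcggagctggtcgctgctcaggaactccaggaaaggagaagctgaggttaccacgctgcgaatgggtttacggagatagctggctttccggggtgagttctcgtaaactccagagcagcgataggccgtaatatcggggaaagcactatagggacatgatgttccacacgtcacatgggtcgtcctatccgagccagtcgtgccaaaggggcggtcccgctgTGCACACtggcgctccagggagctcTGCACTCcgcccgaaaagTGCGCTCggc
Mt2: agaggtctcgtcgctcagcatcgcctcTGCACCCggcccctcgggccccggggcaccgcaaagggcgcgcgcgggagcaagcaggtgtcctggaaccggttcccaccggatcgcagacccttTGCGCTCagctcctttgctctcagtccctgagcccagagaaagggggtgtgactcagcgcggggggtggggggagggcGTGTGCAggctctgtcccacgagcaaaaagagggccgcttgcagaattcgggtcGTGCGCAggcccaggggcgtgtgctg

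The Mt1 window is chr8:94178839-94179118 on the plus strand, and the Mt2 window is chr8:94172368-94172647, also on the plus strand. In its window Mt1 held 3 matches, beginning 23 bases before the annotated start and at bases 3 and 21 of the annotated transcript. Bases outside the windows were not searched. Mt2 held 4, beginning 223, 128 and 50 bases before the start and at base 5 of the transcript, the last 2 of them on the minus strand. At least 1 match was present in 24.1% of the 32851 promoter windows of the same length, at least 3 in 1.73% and at least 4 in 0.405%. No match overlapped another. Aligned over their whole length, the 2 windows were identical in 46.7% of columns.

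For the hepcidins, the 250 bases before the start are shown. Capitals mark a STAT element, searched as TTCNNNGAA, and a BMP response element, searched as GGCGCC.

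Hamp: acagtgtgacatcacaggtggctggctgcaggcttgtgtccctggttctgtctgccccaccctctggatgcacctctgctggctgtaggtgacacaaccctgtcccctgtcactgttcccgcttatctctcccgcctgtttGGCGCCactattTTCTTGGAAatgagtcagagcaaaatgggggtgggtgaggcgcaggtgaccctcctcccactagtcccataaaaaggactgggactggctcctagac
Hamp2: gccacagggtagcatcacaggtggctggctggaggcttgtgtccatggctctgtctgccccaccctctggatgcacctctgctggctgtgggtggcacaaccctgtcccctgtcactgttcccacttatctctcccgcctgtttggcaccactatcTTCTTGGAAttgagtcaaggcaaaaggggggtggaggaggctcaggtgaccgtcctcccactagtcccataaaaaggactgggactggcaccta

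The Hamp window is chr7:30944030-30944279 and the Hamp2 window chr7:30924182-30924431, both on the minus strand. The windows were identical in 227 of 253 aligned columns, or 89.7%. The STAT element began 97 bases before the start of Hamp and 94 before that of Hamp2, and 7.02% of promoter windows held one. GGCGCC lay 109 bases before the start of Hamp and was held by 9.59% of windows. In Hamp2 the aligned stretch differed from it by G145A, counted from 1 at the 5′ end of the printed Hamp sequence, with the Hamp base first. These matches describe letters in the windows and were not tested for function.

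Signal is given as the deposited linear intensity, or as log2 of the quantile-normalized intensity plus 16, where an intensity of 0 reads 4. Differences between diets are log2 ± SE from a limma fit to the 3 diet means over 18 arrays, and a call is a Benjamini-Hochberg adjusted p under 0.05 over all 22885 probe sets. The median intensity of the arrays ran from 14.2 to 21.9, and each array's median correlation with the others from 0.965, in 1% replicate 1, to 0.980. The defining markers of hepatocytes were among the strong signals in every mouse, with a list mean of 13.40 to 13.52 in 18 livers on the log2 scale. Hemoglobin probe sets of Hba-a1 and Hba-a2 stayed at intensities of at most 15.3 and were under the filter. On the same erythroid and blood list, Alas2 read 413 to 663 and the tested Slc4a1 probe set 4.69 to 32.5. The mean of these 2 tested genes ran from 6.56 to 7.49 log2, and the share of blood RNA was not tested. The exocrine pancreas list mean lay between 4.53 and 5.25.

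Metallothionein mRNA differed more between mice of the same diet than almost any other transcript. Across the 18 livers Mt1 spanned 89.8-fold and Mt2 168-fold on the log2(value + 16) scale. In the order of spread between mice of a diet, Mt2 stood at rank 1 of 22885 probe sets, with an SD of 2.90, and Mt1 was at rank 4, with an SD of 2.76. High and low livers occurred on every diet. Of the 10 most variable probe sets, the others belonged to Lcn2, Saa2, Saa3 and Orm2, which are acute phase genes, and to Moxd1, Rgs16 and Scara5.

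In controls the deposited intensity of Mt1 (probe set 1422557_s_at) was 121, 165 and 266 in replicates 1, 3 and 2, and 8598, 8735 and 8916 in replicates 6, 5 and 4. On 0.05% quercetin it was 128, 136, 150 and 207 in replicates 1, 4, 6 and 5, and 7620 and 10333 in replicates 3 and 2. At 1% quercetin it was 292 in replicate 2, 1173 in replicate 4, and 4631, 9507, 10531 and 10838 in replicates 3, 5, 6 and 1. Each diet therefore held livers at both ends of the range, and only 1% replicate 4 lay between them. High livers numbered 3 of 6 among controls, 2 of 6 at 0.05% and 4 of 6 at 1%, a description of these mice with no test.

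Mt2 (1428942_at) followed mouse by mouse. Control intensities were 33.4, 78.5 and 112 in the livers with little Mt1, and 5298, 6144 and 7182 in the rest. On 0.05% quercetin, 4 livers read from 57.3 to 89.2, and replicates 3 and 2 read 2144 and 5927. At 1% quercetin, replicate 2 read 134, replicate 4 read 655, and the other 4 read from 2998 to 7889. Every liver low for Mt1 was low for Mt2, and the liver in between for Mt1 was in between for Mt2.

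**Figure D1:**
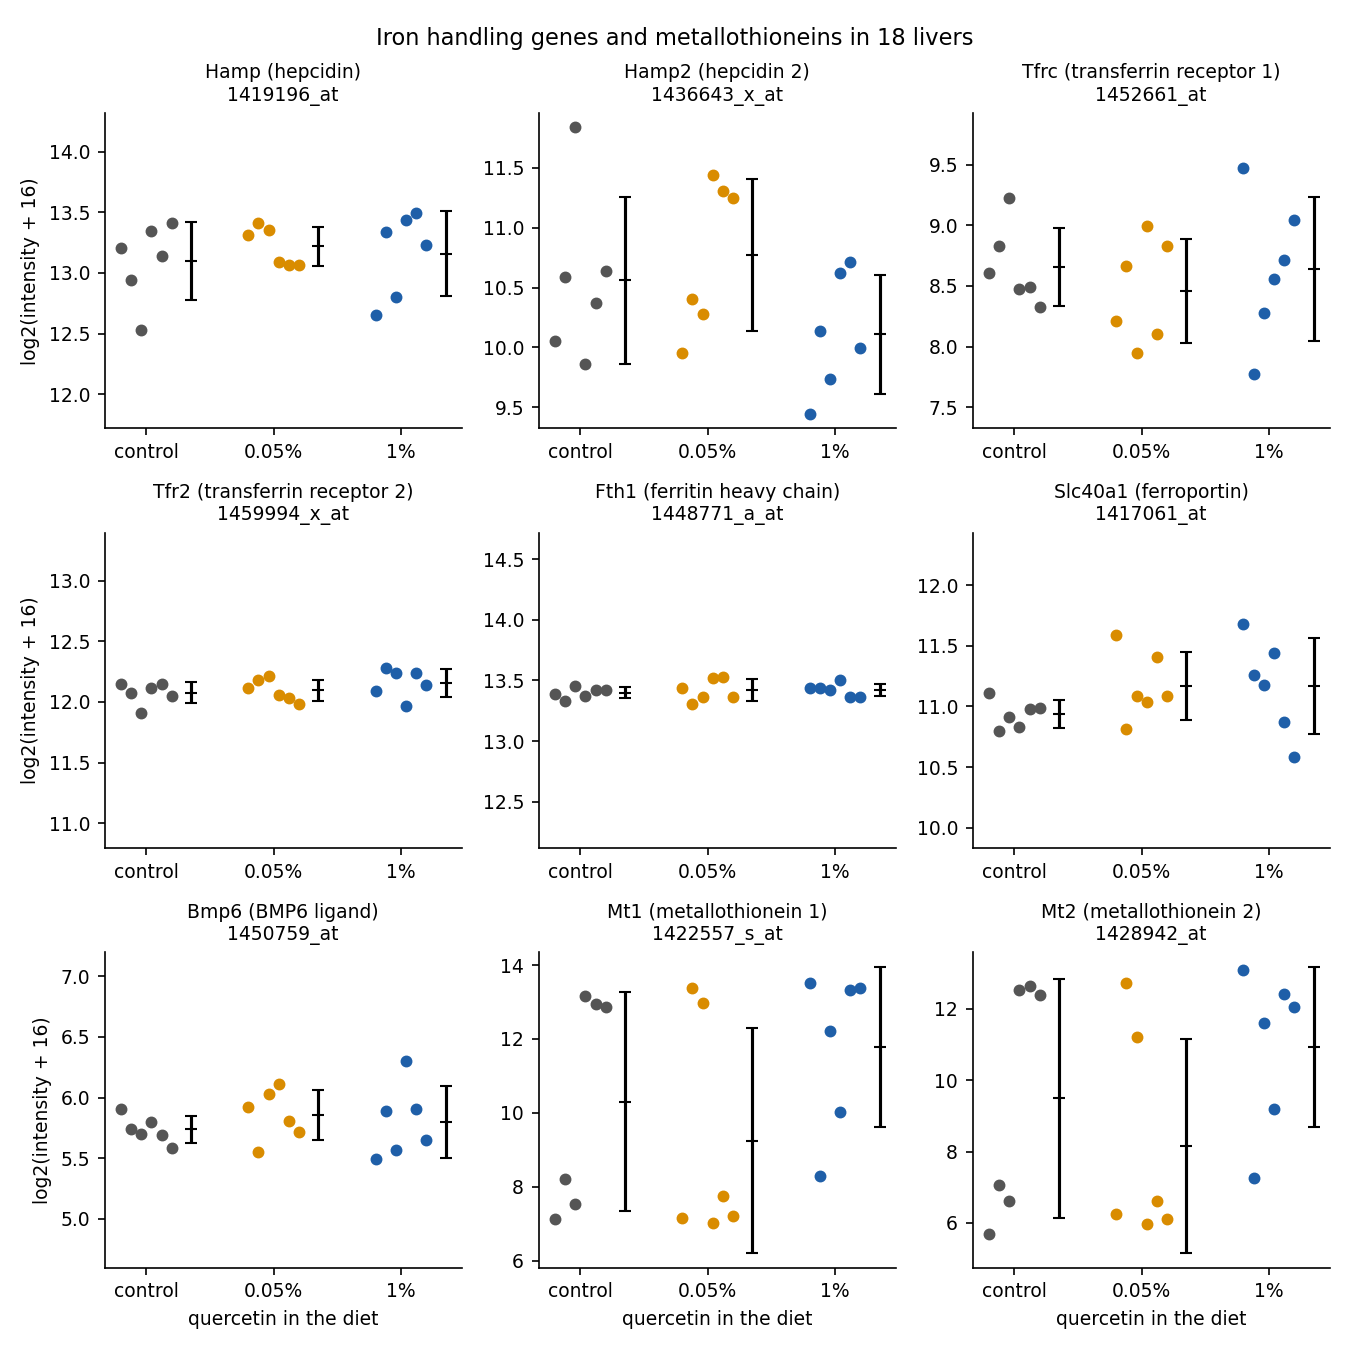
Expression of 9 genes, each by its probe set with the highest mean, as log2(intensity + 16) after quantile normalization, in 6 mice per diet. Points are mice in the order of their replicate numbers, bars are the diet mean ± SD, and each panel has its own vertical axis. Mt1 and Mt2 each fell into high and low livers on all 3 diets, with Mt1 from 7.02 to 13.51, while Fth1 stayed between 13.31 and 13.53.

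Diet means of Mt1 were 9.25 ± 3.05 (SD, n = 6) at 0.05%, 10.30 ± 2.96 in controls and 11.79 ± 2.16 at 1%, in rising order, on the log2 scale. No neighbours in that order differed beyond their spread. The difference of 1% from control was 1.48 ± 1.42, with a 95% interval from -1.48 to 4.45 and a limma adjusted p of 0.829. The difference of 0.05% from control was -1.05 ± 1.42 (limma adjusted p = 0.949), and that of 1% from 0.05% was 2.54 ± 1.42 (limma adjusted p = 0.601). The interval at 0.05% ran from -4.02 to 1.91, so neither dose's interval excludes a change of 1 log2 in either direction.

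For Mt2 the order of the diet means was the same, at 8.15 ± 3.01, 9.49 ± 3.35 and 10.93 ± 2.25 (SD, n = 6). It differed by 1.45 ± 1.49 between 1% and control, by -1.34 ± 1.49 between 0.05% and control, and by 2.79 ± 1.49 between 1% and 0.05%. None was called by limma, with adjusted p-values of 0.849, 0.939 and 0.581. With 1 array left out, the difference of 1% from control ran from 0.85 to 2.19 for Mt1 and from 0.69 to 2.18 for Mt2.

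A second Mt1 probe set, 1451612_at, was dim. It read from 1.25 to 122 in controls, from 1.63 to 15.8 at 0.05% and from 11.6 to 501 at 1%, with the value of 501 in 1% replicate 1. Its 1% mean exceeded its 0.05% mean by 1.60 ± 0.65 log2 (unadjusted p = 0.0229, limma adjusted p = 0.452, exact permutation p = 0.0108), and all 6 mice on 1% lay above the 0.05% mean. It did not pass the adjustment. The difference was 0.98 without 1% replicate 1 and 2.67 with 1 added before the log2 in place of 16. Its difference between 1% and control, 0.50 log2, was -0.12 without 1% replicate 1. In 0.05% replicates 2 and 3, whose 1422557_s_at signals were high, it read 4.72 and 3.02, so the Mt1 probe sets disagreed in these livers. By platform naming the suffix _s_at marks probes shared by several transcripts, so 1422557_s_at may also report related transcripts.

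Between the extremes no correlation over all 18 livers was computed, because the Mt1 values fall into separate clusters. Among the 8 livers with Mt1 between 7.02 and 8.29 log2, Mt1 and Mt2 had a Pearson r of 0.95 and a Spearman rho of 0.93 (exact permutation p = 0.00062 and 0.00223, two-sided). Adjusted over the 18 relations computed, p was 0.0112, and r was 0.85 without the 2 livers farthest from the median of Mt1. Among the 9 livers between 12.23 and 13.51, r was 0.59 and rho 0.56 (exact permutation p = 0.0945 and 0.121, adjusted p = 0.284 for r). There r was 0.24 without the 2 farthest livers.

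The genes most like Mt1 across mice were ranked by Pearson r over 18 livers after subtraction of the diet means, among 12871 genes outside the members. They were Osmr, the oncostatin M receptor (0.94), Steap4, a metalloreductase (0.94), Cpne8 (0.93), Tacc2 (0.93) and Slc39a14, a zinc and iron importer (0.93). With clustered Mt1 values these coefficients serve only to rank genes. Slc39a14 read 9.05 to 9.20 log2 in control replicates 1 to 3, which had little Mt1, and 10.10 to 10.33 in control replicates 4 to 6. Steap4 read 9.43 to 9.86 in the former and 11.92 to 12.35 in the latter.

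Acute phase genes varied between the same livers. The mean of 20 acute phase genes, among them Saa1, Orm1, Lcn2, Hp and Steap4 (Steap4, Cp, Hp and Hpx are also on the iron list), was 10.47, 10.64 and 10.28 log2 in control replicates 1 to 3 and 12.22, 12.29 and 11.29 in replicates 4 to 6. On 0.05% quercetin it was 12.30 and 11.99 in replicates 2 and 3, which had much Mt1, and 10.14 to 10.39 in the other 4. At 1% the order was less clear: replicates 1 and 3, with much Mt1, read 11.02 and 10.91, replicate 2, with little, read 10.79, and replicates 5 and 6 read 12.24 and 12.20. Within the 8 livers of the low Mt1 cluster, r between Mt1 and this mean was 0.67 and rho 0.40 (exact permutation p = 0.0727 and 0.327, adjusted p = 0.262 for r), and r was -0.44 without the 2 farthest livers. Within the 9 of the high cluster, r was 0.47 and rho 0.28 (exact permutation p = 0.201 and 0.454, adjusted p = 0.402 for r), and r was 0.66 without the 2 farthest livers. The difference between the clusters was not tested, and r values within Mt1 clusters, here and below, leave it out. After subtraction of the diet means, single acute phase genes had an r with Mt1 over 18 livers from 0.19 (Fgg) to 0.94 (Steap4). With clustered Mt1 values, these coefficients too serve only to rank genes.

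Neutrophil markers are given beside this because their mean was higher in the same control livers, mostly through S100a8 and S100a9. As deposited, S100a8 read 5.45 to 6.14 log2 in control replicates 1 to 3 and 7.74 to 9.31 in replicates 4 to 6. S100a9 read 5.19 to 6.17 and 7.31 to 8.87. Ngp, Elane and Mpo read at most 5.84 in these controls, Ngp and Elane without separation, and Camp and Ltf were under the filter. The mean of the 5 neutrophil markers tested was 5.26 to 5.43 log2 in control replicates 1 to 3 and 5.92 to 6.85 in replicates 4 to 6. On 0.05% quercetin it ran from 4.88 to 5.48, with 5.48 and 5.27 in the livers high for Mt1, and at 1% from 5.54 to 6.31. The summed deposited intensity of the markers was 108 to 1151 in controls, 77.8 to 195 at 0.05% and 202 to 771 at 1%. Their part in the Mt1 and Mt2 levels was not tested. In whole liver, fewer cells of a type and less RNA per cell cannot be told apart.

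**Figure D2:**
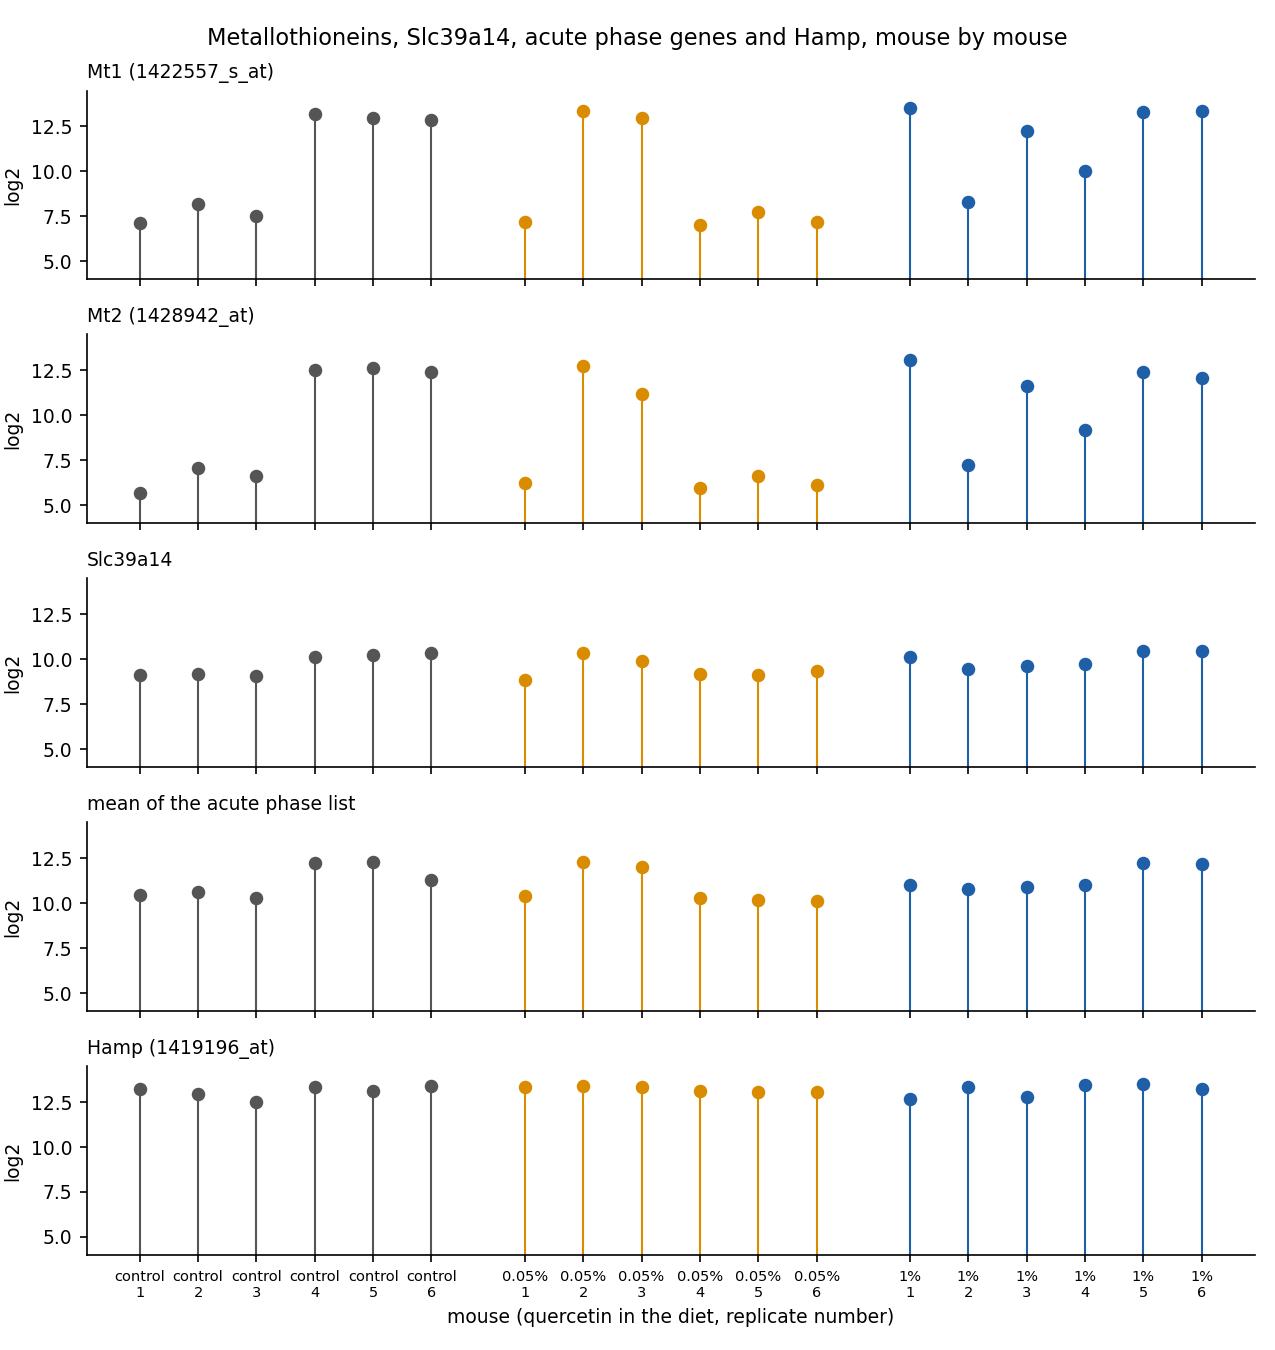
Mt1, Mt2, Slc39a14, the mean of the acute phase list and Hamp in each of the 18 livers, on 1 log2(intensity + 16) scale that starts at 4, the reading of an intensity of 0. Stems run from the axis to the value. Mt1 and Mt2 were high in control replicates 4 to 6, in 0.05% replicates 2 and 3 and in 1% replicates 1, 3, 5 and 6, whereas Hamp lay between 12.53 and 13.50 in all livers.

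Glucocorticoid-induced genes were read because glucocorticoids induce metallothioneins. The mean of the 11 tested, such as Tsc22d3, Fkbp5 and Tat, with Lcn2 shared with the acute phase list, ran from 9.05 to 9.64 log2 in controls, from 8.68 to 9.55 at 0.05% and from 8.59 to 9.35 at 1%. In controls it was 9.05 to 9.26 in replicates 1 to 3, low for Mt1, and 9.35 to 9.64 in the rest. At 0.05% it was 9.36 and 9.55 in replicates 2 and 3, high for Mt1, and 8.68 to 9.03 in the rest. Of the livers high for Mt1 at 1%, replicates 1 and 3 read 8.74 and 8.99, and replicates 5 and 6 9.35 and 9.34. Replicate 2, low for Mt1, read 8.92. Single genes differed in sign: after subtraction of the diet means, r with Mt1 ran from -0.55 (Dusp1) to 0.87 (Lcn2). In the low cluster the list mean's r with Mt1 was 0.34 and rho 0.21 (exact permutation p = 0.401 and 0.619, adjusted p = 0.714 for r, n = 8), and r was 0.29 without the 2 farthest livers. In the high cluster r was -0.02 and rho -0.31 (exact permutation p = 0.96 and 0.415, adjusted p = 0.993 for r, n = 9), and r was -0.59 without the 2 farthest. At 1% against control 8 of the 11 were lower and 3 higher, with a median of -0.37 against -0.00233 over all 12880 genes. None was called by limma, while 4 lower and 1 higher had an unadjusted p under 0.05, which 8.08% of all probe sets reached in that comparison. Slc30a1, a zinc exporter and textbook MTF1 target, had an r with Mt1 of -0.0034 and a rho of -0.12 in the low cluster (exact permutation p = 0.993 and 0.793, adjusted p = 0.993 for r, n = 8), with r at -0.30 without the 2 farthest livers. In the high cluster r was 0.19 and rho 0.17 (exact permutation p = 0.65 and 0.667, adjusted p = 0.836 for r, n = 9), with r at 0.35 without the 2 farthest.

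The other zinc genes were read from a list of transporters and MTF1 targets, of which 11 of 13 were tested. Slc39a14 is also on the iron list. At 1% against control 8 were higher and 3 lower, with a median of 0.02. On values as deposited 5 were higher and 6 lower, with a median of -0.03 against -0.06 over all genes. At 0.05% 3 were higher and 8 lower, with a median of -0.09, and none was called in either comparison or had an unadjusted p under 0.05. The smallest p-values at 1% belonged to the zinc importers Slc39a4 (0.60 ± 0.29, limma adjusted p = 0.627) and Slc39a1 (0.25 ± 0.14, limma adjusted p = 0.660). At 0.05% they belonged to Mtf1, the metal sensor (-0.24 ± 0.17, limma adjusted p = 0.902), and to the zinc transporter Slc30a5 (-0.30 ± 0.24, limma adjusted p = 0.910). The other Mtf1 probe sets measured -0.06 and 0.06 at that dose, so the sign depended on the probe set. Between 1% and 0.05%, Slc39a4 measured 0.92 ± 0.29 (unadjusted p = 0.00518, limma adjusted p = 0.361). Slc39a1 measured 0.34 ± 0.14 there (unadjusted p = 0.0201, limma adjusted p = 0.442). These genes also varied with Mt1 between mice of a diet. After subtraction of the diet means, r with Mt1 over 18 livers was 0.81 for Slc39a4, 0.85 for Slc39a1 and 0.87 for Slc30a5. It was 0.38 for Mtf1 and -0.34 for Slc39a5, the lowest of the list. The part of the high and low Mt1 livers in these differences was not tested.

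**Figure D3:**
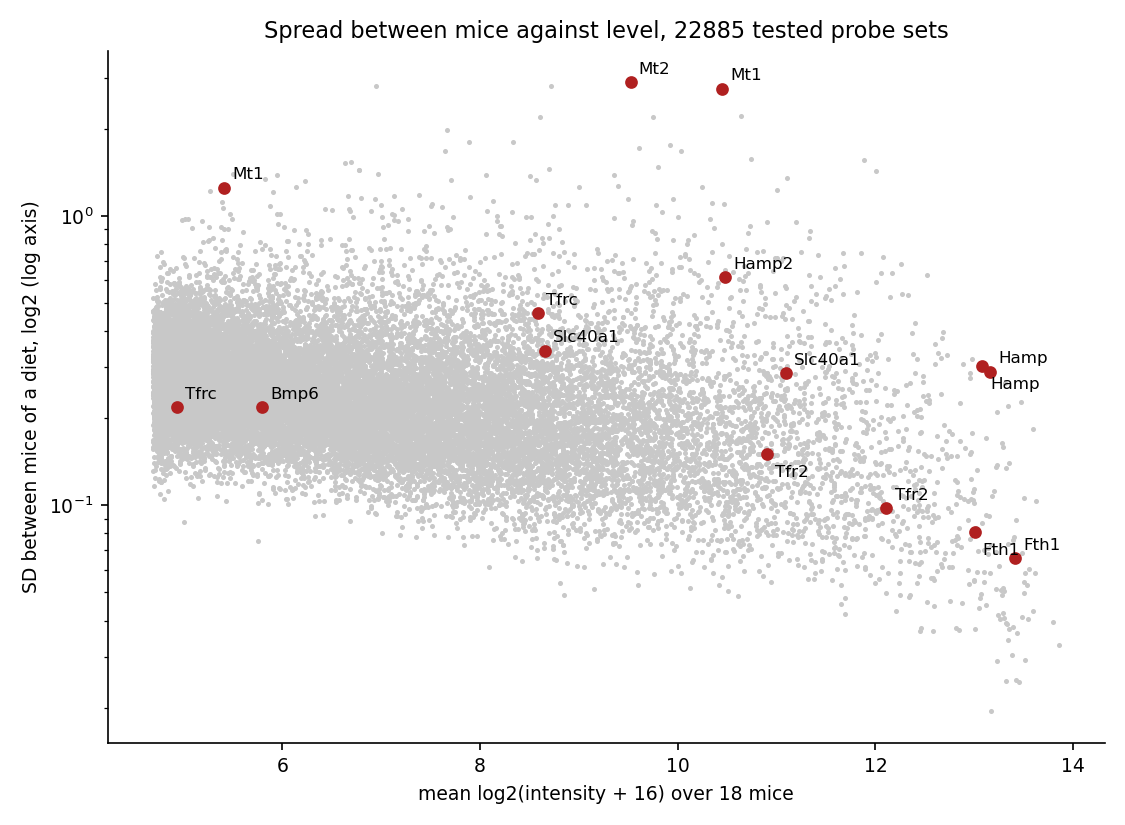
SD between mice of a diet, on a log axis, against the mean log2(intensity + 16) over 18 mice, for the 22885 tested probe sets (grey) and the 15 member probe sets (red). Mt2 (SD 2.90) and Mt1 (SD 2.76) lie at the top, and Fth1 (SD 0.07 and 0.08) near the bottom.

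Hepcidin mRNA was a strong signal in every liver, with the brighter Hamp probe set at rank 59 of 22885 by mean. Its SD between mice of a diet was 0.29 log2, above that of 70.2% of probe sets. Deposited intensities of Hamp (1419196_at) had a lowest, median and highest value of 5940, 9789 and 12058 in controls, of 8286, 9605 and 10586 at 0.05%, and of 5774, 9781 and 11222 at 1%. The 3 diets overlapped almost completely, and the lowest livers were 1% replicate 1 and control replicate 3. Diet means were 13.10 ± 0.32 (SD, n = 6) log2 in controls, 13.16 ± 0.35 at 1% and 13.22 ± 0.16 at 0.05%, an order in which no neighbours differed beyond their spread. Hamp differed by 0.06 ± 0.16 between 1% and control, with a 95% interval from -0.27 to 0.39 (limma adjusted p = 0.953). At 0.05% the difference was 0.12 ± 0.16, with an interval from -0.21 to 0.46 (limma adjusted p = 0.949). These intervals exclude changes of Hamp as large as 0.50 log2 at either dose on this scale. The sign at 1% was not stable: it was -0.06 on values as deposited, -0.02 under the median shift and -0.05 without control replicate 3. The second Hamp probe set, 1419197_x_at, measured 0.05 ± 0.16 and 0.13 ± 0.16.

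No member was called in any comparison of diets. Over all probe sets, 0.00874% (2 of 22885) were called between 1% and control, 0.00437% (1) between 0.05% and control, and 0% between 1% and 0.05%, where 2152 had an unadjusted p under 0.05. The F test over the 3 diets called 0.00874% (2), again without a member, and 0 of the 15 member probe sets reached an unadjusted F test p under 0.05, against 8.6% of all probe sets. An unadjusted p under 0.05 was reached by 1 of 15 member probe sets for 1% against control, where 8.08% of all probe sets reached it, by 0 for 0.05% against control (5.93%) and by 1 for 1% against 0.05% (9.4%). In no comparison did the 6 mice of a diet lie wholly beyond those of another for a member, against 0.52%, 0.35% and 0.747% of all probe sets. The members' shares are near those of the whole array.

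**Figure D4:**
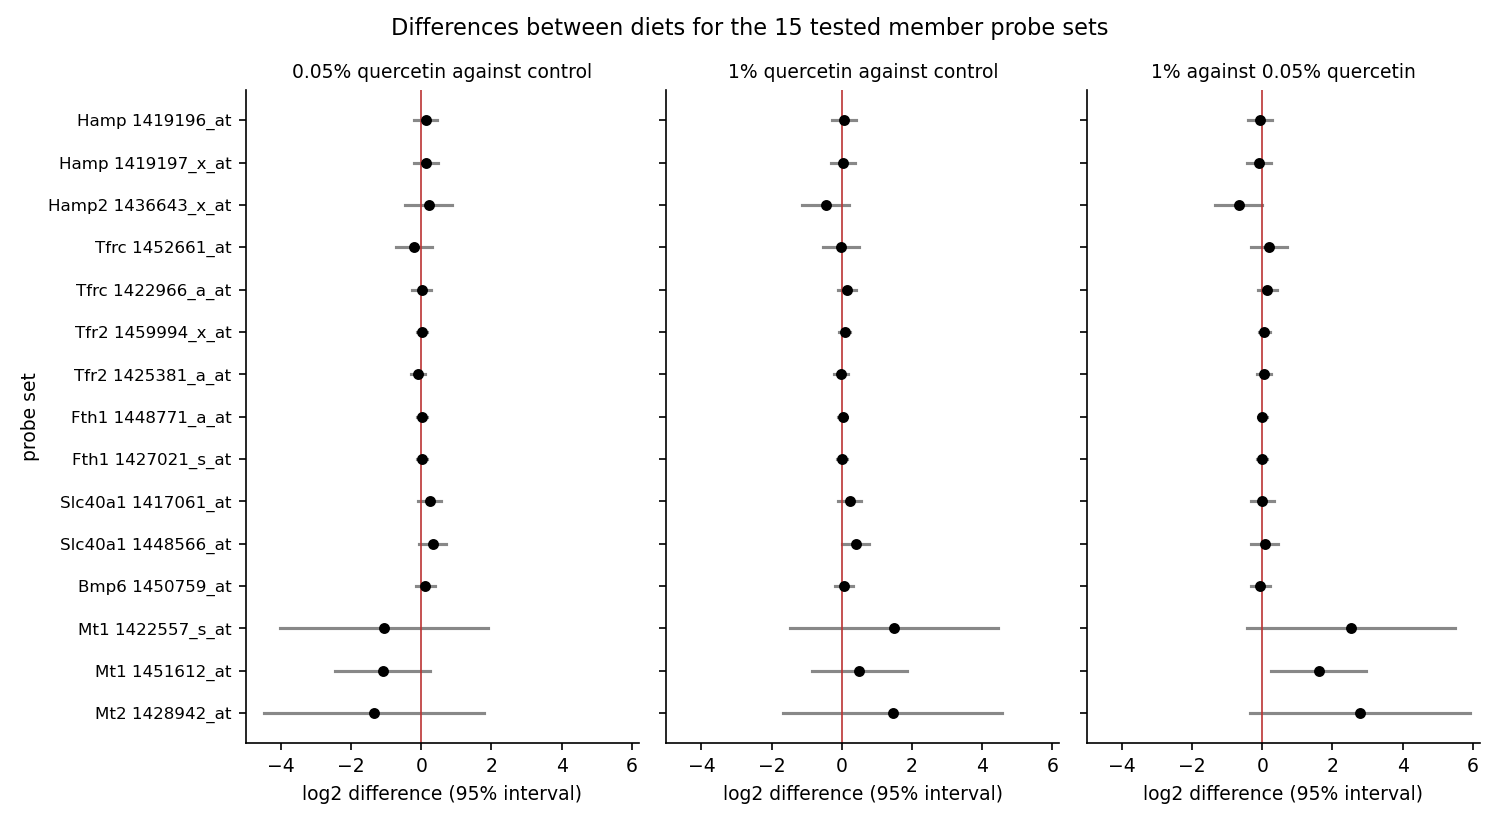
Log2 differences between diets with 95% intervals from the limma fit for the 15 tested member probe sets, n = 6 mice per diet. The intervals of Mt1 and Mt2 span several log2 units, from -1.48 to 4.45 for Mt1 at 1% against control, while no bound for Fth1 lies farther from 0 than 0.174 in any of the 3 panels.

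Hamp2, the mouse paralogue of Hamp, varied more. Its probe set 1436643_x_at read from 786 to 3694 in controls with a median of 1474, from 965 to 3269 at 0.05% with a median of 1826, and from 581 to 1787 at 1% with a median of 1054. The high livers were control replicate 3 and 0.05% replicates 4, 5 and 6, and none of the 1% livers reached them. Diet means were 10.11 ± 0.49 (SD, n = 6) log2 at 1%, 10.56 ± 0.69 in controls and 10.77 ± 0.64 at 0.05%, and no neighbours differed beyond their spread. The ends of that order, 1% and 0.05%, differed by -0.66 ± 0.32, with all 6 mice on 1% below the 0.05% mean (unadjusted p = 0.0522, limma adjusted p = 0.530, exact permutation p = 0.0758). Its range over 18 livers was 5.26-fold, against 1.95-fold for Hamp, and the other Hamp2 probe set, 1456289_at, was under the filter at 0.64 to 18.3.

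By platform naming the suffix _x_at marks probes that can bind similar sequences, so some cross-signal between Hamp and Hamp2 is possible. Probe and transcript sequences were not compared here. Over 18 livers their Pearson r was -0.17 and rho 0.01 (permutation p = 0.51 and 0.985), and the adjusted p for r was 0.714. Without the 2 livers farthest from the median of Hamp, r was -0.10. Control replicate 3 had the lowest Hamp (12.53 log2) and the highest Hamp2 (11.84). In 1% replicate 1 Hamp was next lowest (12.65) and Hamp2 lowest (9.44).

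**Figure D5:**
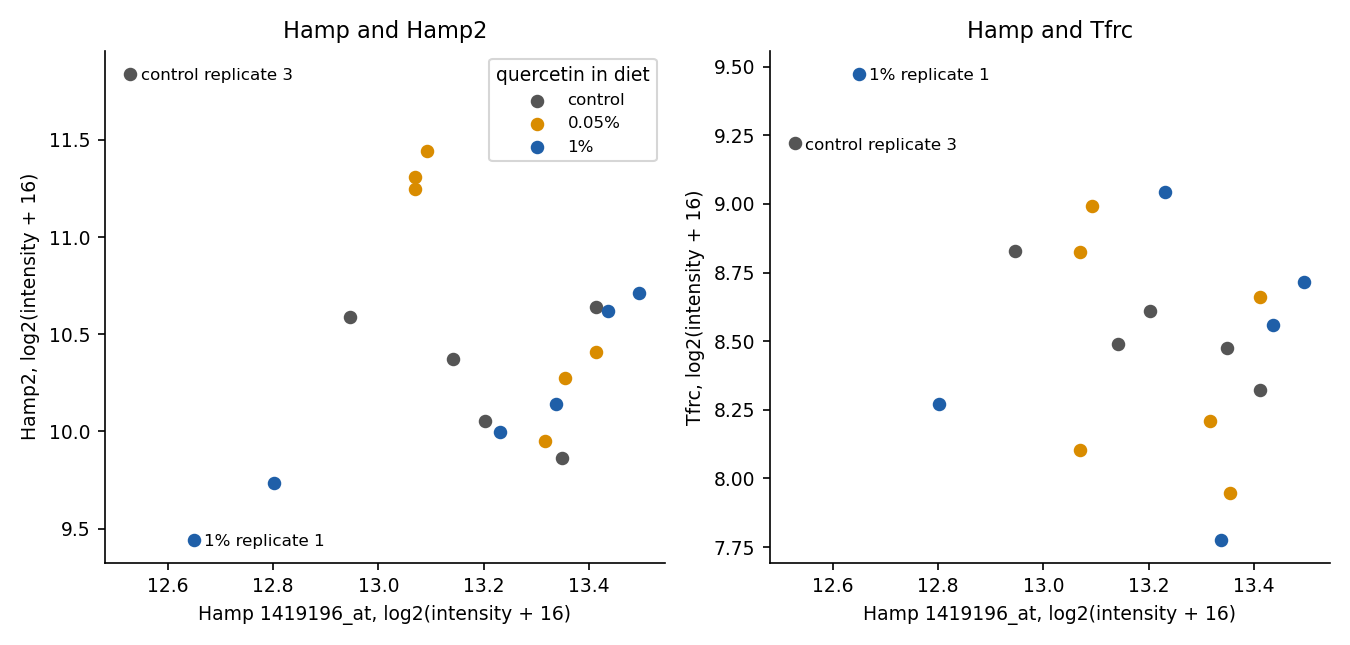
Hamp against Hamp2 (left) and Tfrc (right) in 18 livers, each as log2(intensity + 16), coloured by diet. Control replicate 3 and 1% replicate 1, the livers with the least Hamp at 12.53 and 12.65, had the highest Tfrc at 9.22 and 9.47 and lay at opposite ends for Hamp2, at 11.84 and 9.44.

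The transcripts most like Hamp across mice, by the same ranking, were Wbp11 (0.90), Fam184a (0.89), Id3, a BMP target (0.86), Irx1 (0.84) and Gpr65 (0.84). Id3 read 8.59 log2 in control replicate 3 and 9.24 in 1% replicate 1. Its diet means were 9.48 ± 0.62 in controls, 9.89 ± 0.29 at 0.05% and 10.02 ± 0.61 at 1% (SD, n = 6).

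Bmp6, the endothelial ligand that raises hepcidin, was a dim signal. It read from 34.0 to 41.7 in controls with a median of 37.3, from 25.3 to 65.3 at 0.05% with a median of 44.3, and from 23.3 to 76.3 at 1% with a median of 34.6. The highest liver was 1% replicate 4, and the diets overlapped. Bmp6 differed from control by 0.06 ± 0.12 log2 at 1% (limma adjusted p = 0.935) and by 0.12 ± 0.12 at 0.05% (limma adjusted p = 0.932). Over 18 livers its r with Id1, a BMP target, was 0.57 and rho 0.48 (permutation p = 0.0121 and 0.0437, adjusted p = 0.109 for r), but r was 0.22 without the 2 livers farthest from the median of Bmp6. The relation rests on those livers. Its r with Hamp was 0.43 and rho 0.36 (permutation p = 0.0725 and 0.145, adjusted p = 0.262 for r), and 0.31 without the 2 livers farthest from the median of Hamp. Closest to Bmp6 across mice were Adat3 (0.80), Slc25a36 (0.80), Plin5 (0.78), Nuf2 (0.77) and Ap5m1 (0.76).

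The BMP-SMAD genes that act between Bmp6 and Hamp were read as a list of 18 symbols, which name 17 genes because Hfe2 is an older symbol of Hjv, and all 17 were tested. None was called by limma. At 1% against control 10 were higher and 7 lower, with a median of 0.0039, and none had an unadjusted p under 0.05. On values as deposited 6 were higher and 11 lower, with a median of -0.04 against -0.06 over all genes. At 0.05% 12 were higher and 5 lower, with a median of 0.02 against -0.01 over all genes. Under the median shift 7 were higher and 10 lower at that dose, with a median of -0.01 against -0.04 over all genes. At that dose 3 of the 17, all higher, had an unadjusted p under 0.05, against 5.93% of all probe sets in either direction. Id1, a transcriptional BMP target, measured 0.97 ± 0.32 (unadjusted p = 0.00646, limma adjusted p = 0.760). The inhibitory SMADs followed, Smad6 at 0.43 ± 0.15 (unadjusted p = 0.00858, limma adjusted p = 0.788). Smad7 measured 0.55 ± 0.20 (unadjusted p = 0.0151, limma adjusted p = 0.794). Smad7 lay outside the naming rule and was chosen after its values were seen.

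Id1 read a lowest, median and highest value of 6.52, 6.74 and 7.17 log2 in controls, 7.14, 7.74 and 8.43 at 0.05%, and 6.64, 6.99 and 8.90 at 1%. Controls and the 0.05% livers barely overlapped. The 0.05% livers highest for Id1 were replicates 4 to 6, at 8.01, 8.43 and 8.11, while replicates 1 to 3 read 7.29, 7.48 and 7.14. Smad6 in replicates 1 to 3 read 7.05, 7.02 and 6.90, no higher than the control maximum of 7.05. The highest 1% liver for Id1 was replicate 4, which also had the most Bmp6. Array median intensity was 21.9, 19.5 and 20.4 in 0.05% replicates 4 to 6 and 21.1 in 1% replicate 4. These medians were near the top of all arrays, and their part was not tested. Id1 had an r with Hamp of 0.35 and a rho of 0.40 (permutation p = 0.157 and 0.096, adjusted p = 0.353 for r), and r was 0.19 without the 2 livers farthest from the median of Hamp. Sinusoidal endothelial markers were higher at 0.05% in 9 of 9 genes (8 of 9 under the median shift), with a median of 0.15 against -0.01 over all genes. Of the 9, 4 had an unadjusted p under 0.05, against 5.93% of all probe sets in either direction, and none was called. Their summed intensity was 2257 to 3013 in controls, 2305 to 3620 at 0.05% and 2198 to 3855 at 1%. Their part in the Id1, Smad6 and Smad7 values was not tested.

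At 1% the smallest p-values of this list belonged to Hjv, hemojuvelin, a BMP co-receptor, at -0.36 ± 0.18 (limma adjusted p = 0.626), and to Acvr2a, an activin and BMP receptor, at 0.19 ± 0.10 (limma adjusted p = 0.667). The second Hjv probe set measured -0.43 ± 0.18 (unadjusted p = 0.0233, limma adjusted p = 0.544). Hjv read 8.35, 8.90 and 9.10 log2 in 1% replicates 1, 3 and 2, below the control range of 9.24 to 9.75, and 9.40 to 9.68 in the other 3 mice on 1%.

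Tfr2, the hepatocyte iron sensor that signals to hepcidin, lay in a narrow band. Its brighter probe set, 1459994_x_at, ran from 3829 to 5060 in controls, from 3875 to 4812 at 0.05% and from 3884 to 4980 at 1%, and the diets overlapped. The difference of 1% from control was 0.08 ± 0.07 log2 (limma adjusted p = 0.818) and that of 0.05% was 0.02 ± 0.07 (limma adjusted p = 0.985), which was -0.06 under the median shift. The other probe set, 1425381_a_at, gave -0.02 ± 0.10 and -0.08 ± 0.10. Tfr2 and Hamp had an r of 0.38 and a rho of 0.30 (permutation p = 0.12 and 0.223, adjusted p = 0.309 for r), with r at 0.11 without the 2 livers farthest from the median of Hamp.

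Tfrc, the receptor that takes up transferrin-bound iron, showed no separation by diet. Probe set 1452661_at read from 293 to 578 in controls with a median of 376, from 207 to 591 at 0.05% with a median of 292, and from 199.7 to 592 at 1% with a median of 398. High and low livers were present at every dose. Tfrc differed from control by -0.02 ± 0.24 log2 at 1% (95% interval -0.53 to 0.49, limma adjusted p = 0.991) and by -0.20 ± 0.24 at 0.05% (limma adjusted p = 0.944). The second tested probe set, 1422966_a_at, read at most 24.9 and gave 0.16 ± 0.13 and 0.01 ± 0.13. Another, 1422967_a_at, and the 3 control probe sets for the 5′, middle and 3′ parts of Tfrc read at most 15.9 and were not in the fit.

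Hamp and Tfrc had an r of -0.54 and a rho of -0.38 over 18 livers (permutation p = 0.0216 and 0.116). Adjusted over the 18 relations, p was 0.13, and r was -0.52 after subtraction of the diet means. Without control replicate 3 and 1% replicate 1 it was -0.15, so the relation rests on those livers. The array of 1% replicate 1 correlated least with the others (median 0.965). Tfrc and Fth1 had an r of -0.06 and a rho of -0.10 (permutation p = 0.81 and 0.691, adjusted p = 0.972 for r), and r was -0.10 without the 2 livers farthest from the median of Tfrc. Nearest to Tfrc across mice were Lmntd2 (0.83), Pum3 (0.80), E2f3, a cell cycle factor (0.79), Snx4 (0.79) and Wdr36 (0.79).

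Fth1, the ferroxidase subunit of the ferritin shell, varied least among the members. Probe set 1448771_a_at ran from 10062 to 12307 in controls, from 9701 to 11729 at 0.05% and from 9744 to 11550 at 1%, and the diets overlapped. Its SD between mice of a diet was 0.07 log2, at rank 22741 of 22885. The difference from control was 0.02 ± 0.06 at 1% (95% interval -0.11 to 0.16) and 0.02 ± 0.06 at 0.05% (-0.12 to 0.16), with limma adjusted p-values of 0.959 and 0.983. Probe set 1427021_s_at gave 0.02 ± 0.07 and 0.03 ± 0.07. Fth1 and Hamp read near the top of the scale, where the brightest probe set of an array lay between 13543 and 18108, and whether this compressed their differences was not tested.

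Among the members other than Hamp2 and the metallothioneins, Slc40a1, ferroportin, the iron exporter that hepcidin removes from the cell surface, had the largest difference from control at 1%. Probe set 1417061_at read from 1561 to 2384 in controls with a median of 2068, from 1386 to 3042 at 0.05% with a median of 2466, and from 1506 to 3051 at 1% with a median of 2312. Quercetin livers reached higher than controls, but the lowest of each diet were alike. Diet means were 10.94 ± 0.12 (SD, n = 6) log2 in controls, 11.17 ± 0.39 at 1% and 11.17 ± 0.28 at 0.05%. They differed from control by 0.23 ± 0.16 at each dose, with limma adjusted p-values of 0.741 and 0.891.

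The second Slc40a1 probe set, 1448566_at, read from 239 to 426 in controls with a median of 324, from 250.4 to 602 at 0.05% with a median of 426, and from 260 to 606 at 1% with a median of 446. It measured 0.40 ± 0.18 log2 at 1%, with 5 of 6 mice above the control mean (unadjusted p = 0.0444, limma adjusted p = 0.604, exact permutation p = 0.0758). At 0.05% it measured 0.33 ± 0.18, with 5 of 6 above the control mean (unadjusted p = 0.0908, limma adjusted p = 0.871, exact permutation p = 0.0498). Neither passed the adjustment. Without 1% replicate 1, which had the most Slc40a1 after normalization, the 1% differences were 0.13 for 1417061_at and 0.26 for 1448566_at. Slc40a1 is also strong in Kupffer cells, whose marker list gave means of 8.24 to 9.17 in controls, 8.29 to 9.01 at 0.05% and 8.25 to 9.02 at 1%. Of 10 Kupffer cell and macrophage markers, 4 were higher and 6 lower at each dose against control, none with an unadjusted p under 0.05. Slc40a1 and Hamp had an r of -0.17 and a rho of -0.15 (permutation p = 0.516 and 0.556, adjusted p = 0.714 for r), and r was -0.01 without the 2 livers farthest from the median of Hamp.

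The remaining iron genes, for uptake, storage, heme handling and export, were read as a list of which 22 of 23 were tested. None was called by limma. At 1% against control 13 were higher and 9 lower, with a median of 0.01. On values as deposited 6 were higher and 16 lower, with a median of -0.04 against -0.06 over all genes. At 0.05% 6 were higher and 16 lower, with a median of -0.04. A single gene, Cybrd1, which encodes a ferric reductase, had an unadjusted p under 0.05 in each comparison with control, against 8.08% of all probe sets at 1% and 5.93% at 0.05%, so the list's share is no higher than that of the array. Cybrd1 was dim, with a lowest, median and highest value of 4.95, 5.10 and 5.32 log2 in controls, 4.22, 4.57 and 5.03 at 0.05%, and 4.29, 4.77 and 5.30 at 1%. It measured -0.37 ± 0.15 at 1% (unadjusted p = 0.0256, limma adjusted p = 0.551) and -0.57 ± 0.15 at 0.05% (unadjusted p = 0.0012, limma adjusted p = 0.580). All 6 mice on 0.05% lay below the control mean, though the diets overlapped. Next in order were Flvcr1, a heme exporter, at 1% (0.34 ± 0.17, limma adjusted p = 0.645) and Slc39a8, a zinc and iron importer, at 0.05% (0.28 ± 0.14, limma adjusted p = 0.842). A second Slc39a8 probe set gave 0.11 ± 0.14 at that dose. Hmox1, also on this list, stood apart in 1% replicate 1. As deposited it read 10.69 log2 there and 6.97 to 7.73 in the other livers. That liver also had the most Mt1 (13.51), Slc40a1 (11.68) and Tfrc (9.47) after normalization. As deposited Mt1 (13.41) and Tfrc (9.25) were still highest there. Its deposited Slc40a1 (11.48) lay below the 11.58 of 1% replicate 4 and 0.05% replicate 1. The array of that liver had the lowest median intensity (14.2) and the lowest median correlation with the others (0.965), and the part of array quality was not tested.

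Hamp was set against inflammation as well. The acute phase means fell into 2 clusters of 12 and 6 livers, in which r with Hamp was computed separately. Hamp read from 12.53 to 13.44 log2 in the 12 livers with lower means and from 13.14 to 13.50 in the 6. That difference between clusters was not tested, and the r values within clusters leave it out. After subtraction of the diet means, single acute phase genes had an r with Hamp over 18 livers from 0.0016 (Fgg) to 0.63 (Itih3). In the 12, r was 0.22 and rho 0.26 (permutation p = 0.497 and 0.421, adjusted p = 0.714 for r), and r was 0.36 without the 2 livers farthest from the median of Hamp. In the 6, r was -0.09 and rho 0.14 (exact permutation p = 0.869 and 0.803, adjusted p = 0.978 for r), and r was 0.11 in the 4 livers left without the 2 farthest. Of the 20 acute phase genes, 15 were higher at 1% than in controls and 5 lower, with a median of 0.08. On values as deposited 9 were higher and 11 lower, with a median of -0.02 against -0.06 over all genes. At 0.05% 5 were higher than in controls and 15 lower, with a median of -0.19. None was called by limma. Both comparisons share the 6 control livers, 2 of which lay in the cluster with high acute phase means.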

How the data were processed

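Biotin-labelled amplified RNA from the liver of each mouse was hybridised to an Affymetrix 3′ expression array, per the labels' protocols. The deposited values are linear intensity values, 1 per probe set and array; the signal software, scaling and background correction are not given in any source used here, and array medians show no common scale. Arrays were therefore quantile normalized, 16 was added and log2 taken. Single-symbol probe sets, controls excluded, with a mean above the 40th percentile (4.69 log2) were fitted with lmFit and eBayes in limma 3.58.1 under R 4.3.3, with 15 residual degrees of freedom, two-sided.

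Members were also tested by exact permutation over all 924 splits of 12 mice. Relations used 100000 permutations, or all orders below 10 livers. They were planned over all 18 mice, but where a gap above 0.25 of the range split the values, a rule chosen after they were seen, r was computed within clusters of at least 6. The 20 probe sets matched RefSeq by Entrez number. The planned relation of Tfrc with Trf was not computed. Members and gene lists were chosen with earlier results of these data known. All members were named, the 2 smallest p-values per iron, BMP-SMAD and zinc list and dose, and the 5 genes most like Hamp, Mt1, Tfrc and Bmp6.

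The main fit did not pair mice by replicate number. Deviations of same-numbered mice of different diets had a median r of 0.0014 (range -0.41 to 0.26, 18 pairs). For mice with different numbers it was -0.0074 (range -0.42 to 0.38, 90 pairs). Such values cannot show that the numbers carry no pairing. The pipeline was tested on simulated data. The labels do not say whether mice of a diet shared a cage, so p-values measure only the spread between these mice. Alternatives were other scalings, added values, filters and variance models, 1 probe set per gene, array weights, 12 arrays, a replicate block, and each array left out.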

Additional observations from a re-analysis of the deposited data

How the results depend on the processing

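No member was called under any setting run: 426 values under other settings had adjusted p-values of at least 0.447 by limma, and 810 values with 1 array left out at least 0.347. Of the 426, 414 moved by less than 1 SE; the other 12 were values of Tfr2, Fth1, Tfrc 1422966_a_at and Mt1 1451612_at under other scalings or with 1 added in place of 16. The sign differed in 20 of the 426, of Fth1 (11, to -0.10 at 1% as deposited), Hamp (4), Tfr2 (3), Slc40a1 (1) and Tfrc (1), and in 41 of the 810, of Fth1 (11), Hamp (8), Tfrc (8), Slc40a1 (6), Tfr2 (5), Bmp6 (2) and Mt1 (1).

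Counts of called probe sets over the whole array, from 2 for 1% against control, 1 for 0.05% against control, 0 for 1% against 0.05% and 2 by the F test, moved as follows, in that order. As deposited they were 1, 0, 2 and 1. The median shift gave 1 by the F test. With 1 added, the comparisons with control gave 1 and 0, and the F test 0. No filter gave 2 for 0.05% against control and 2 for 1% against 0.05%. The 60th percentile, and 1 probe set per gene, each gave 1 and 0 against control and 1 by the F test. Trend and robust variances gave 1 for 1% against 0.05% and 6 by the F test, and array weights gave 1 for 1% against 0.05%. Only the 12 arrays compared gave 1, 0 and 18. With the replicate block, 0.05% against control gave 0 and the F test 0. Leaving out 1 array gave 1 to 5, 0 to 1, 0 to 2 and 0 to 4, the 5 and the 4 without control replicate 3 and the 2 without 1% replicate 5.

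Of 18 relations, 1 passed, Mt1 with Mt2 in the low cluster. On values as deposited 2 passed, and without the 2 farthest livers 0. An unadjusted p under 0.05 was reached by 2 member values in the fit and 2 by exact permutation. The cause of these moves was not tested. The 6 arrays per diet limit precision, and most of all that of Mt1 and Mt2.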
